A study of Mus musculus with 8 samples.

Results

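The proteasome is the protease complex that degrades ubiquitin-tagged proteins in the cytosol and nucleus, and its genes were followed here in mouse intestinal organoids with and without RANKL. The members were the protein-coding genes named Psma, Psmb, Psmc, Psmd, Psme, Psmf or Psmg followed by a number, without the interferon-inducible subunits Psmb8, Psmb9 and Psmb10. This gave 45 genes of the 54532 in the count table, of which 43 could be tested. Psma8 and Psmb11 had 0 counts in all 8 libraries. These are forms known from testis and from the cortex of the thymus, and a count of 0 allows a pooled level of up to 0.137 CPM. CPM is the count of a gene divided by the scaled library total, given per 1000000 counts.

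The comparison was between 4 libraries of control organoids and 4 libraries of organoids exposed to RANKL, the ligand of the receptor RANK that activates NF-κB. The labels name no mutation in either group. Organoids were grown from intestinal crypts in Matrigel with EGF, NOGGIN and R-spondin, so NOGGIN, a BMP antagonist, was present in the controls too. Mouse lines in the study were on a C57BL/6J background, while donor age, RANKL dose and exposure time for these libraries were not given in the sources used here. Nothing stated that replicates of a group came from separate mice or cultures, so p-values measure the spread between these libraries, which may be technical.

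The core particle is a barrel of stacked rings. Alpha subunits form the outer rings and gate the entrance, and beta subunits form the inner rings, where Psmb5, Psmb6 and Psmb7 carry the chymotrypsin-like, caspase-like and trypsin-like sites. The regulatory particle caps the barrel. Its base holds the AAA ATPases Psmc1 to Psmc6 that unfold substrates and the scaffolds and ubiquitin receptor Psmd1, Psmd2 and Psmd4, and its lid includes the deubiquitinase Psmd14. Other caps, PA28 and PA200, open the gate without ATP, dedicated chaperones assemble core and base, and the factor NRF1 (gene Nfe2l1) raises transcription of the subunit genes when proteasome capacity falls. In inflamed tissue the inducible beta subunits replace the constitutive sites and change which peptides are made for MHC class I.

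Total counts ran from 583663 to 7807298 per library, a 13.4-fold range, with a median of 3911808 for control and 1613410 for RANKL. Control replicate 4 and RANKL replicate 1 each held under 1000000 counts. Epithelial identity was clear, with Epcam at 981 to 1167 CPM in all libraries. The 6 epithelial markers summed to 5298–6163 CPM in the control and 5360–5828 CPM after RANKL, and Krt18 was the only one called, lower after RANKL. Markers of immune cells summed to at most 0.688 CPM, with Cd3e and Itgax at 0, and endothelial markers to at most 3.44 CPM, with Cdh5 at 0. Stromal markers summed to 12.9–32.7 CPM in the control and 11.7–25.8 CPM after RANKL, most of it Vim. Within the epithelium 3 of 4 M cell markers rose, their summed level going from 11.2–17.2 to 1646–1893 CPM, with Gp2 at 0 in every library. Of these, Spib and Tnfaip2 reached the filter on low counts in 0 control and 4 RANKL libraries, so they were tested because of their level after RANKL. In the same libraries 2 of 3 proliferation markers fell, from 882–1094 to 746–842 CPM summed over the list. Of 3 stem cell markers, Lgr5 fell from a mean of 45.13 to 10.25 CPM, and Ascl2 rose from 17.61 to 37.32 CPM. Olfm4 was not called. The Paneth marker Defa17 fell from a mean of 1138 to 699.7 CPM with overlap, and Lyz1 was not called. Of 3 enterocyte markers Apoa1 alone was called, higher, and the goblet, enteroendocrine and tuft markers were not called. The part that these shifts played in the proteasome genes was not tested. In whole organoids, fewer cells of a type and less RNA per cell cannot be told apart.

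After RANKL the proteasome genes moved little and in both directions. In the edgeR quasi-likelihood test across 9971 genes, 8 members rose and 2 fell at an adjusted p under 0.05. These 10 of 43 members (23.3%) stood beside 25.9% of all genes tested, with 13.6% of all genes called higher and 12.4% lower. The share of members called in either direction was therefore near the background. By direction the calls were uneven, with 8 of 43 members higher and 2 of 43 lower. The 8 that rose were Psma1, Psma2, Psma6, Psmb4, Psmd2, Psmd10, Psmg2 and Psme2, and the 2 that fell were Psmc1 and Psmd4. Without RANKL replicate 4 the test called 7 members higher and 0 lower, without RANKL replicate 1 it called 8 and 0, and without both libraries under 1000000 counts 9 and 0. With library depth (log2 total) added as a covariate, which bears on the depth difference between the groups, it called 7 higher and 1 lower.

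The median log2 fold change of the 43 members was 0.13, against 0.0002 for all genes tested (0.21 for the members without control replicate 1), and 28 members (65.1%) had a positive value, against 50.0% of all genes. The median size without regard to direction was 0.22 for the members and 0.26 for all genes. Psme2 was the 1 member with a change of 2-fold or more (2.33%, against 5.80% of all genes). Groups did not overlap in CPM for 13 members, 11 with every RANKL library above every control library and 2 below. Over all genes tested, 24.6% were separated in this way. Together the 45 members took 0.879 ± 0.0103% of all counts in the control and 0.918 ± 0.0145% after RANKL (mean ± SD, n = 4), and every RANKL library was above every control library. This separation was of shares of the unscaled totals. On TMM-scaled totals, used for all other levels here, the members summed to 8696–9184 CPM in the control and 8916–9392 CPM after RANKL, and the groups overlapped.

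**Figure D1:**
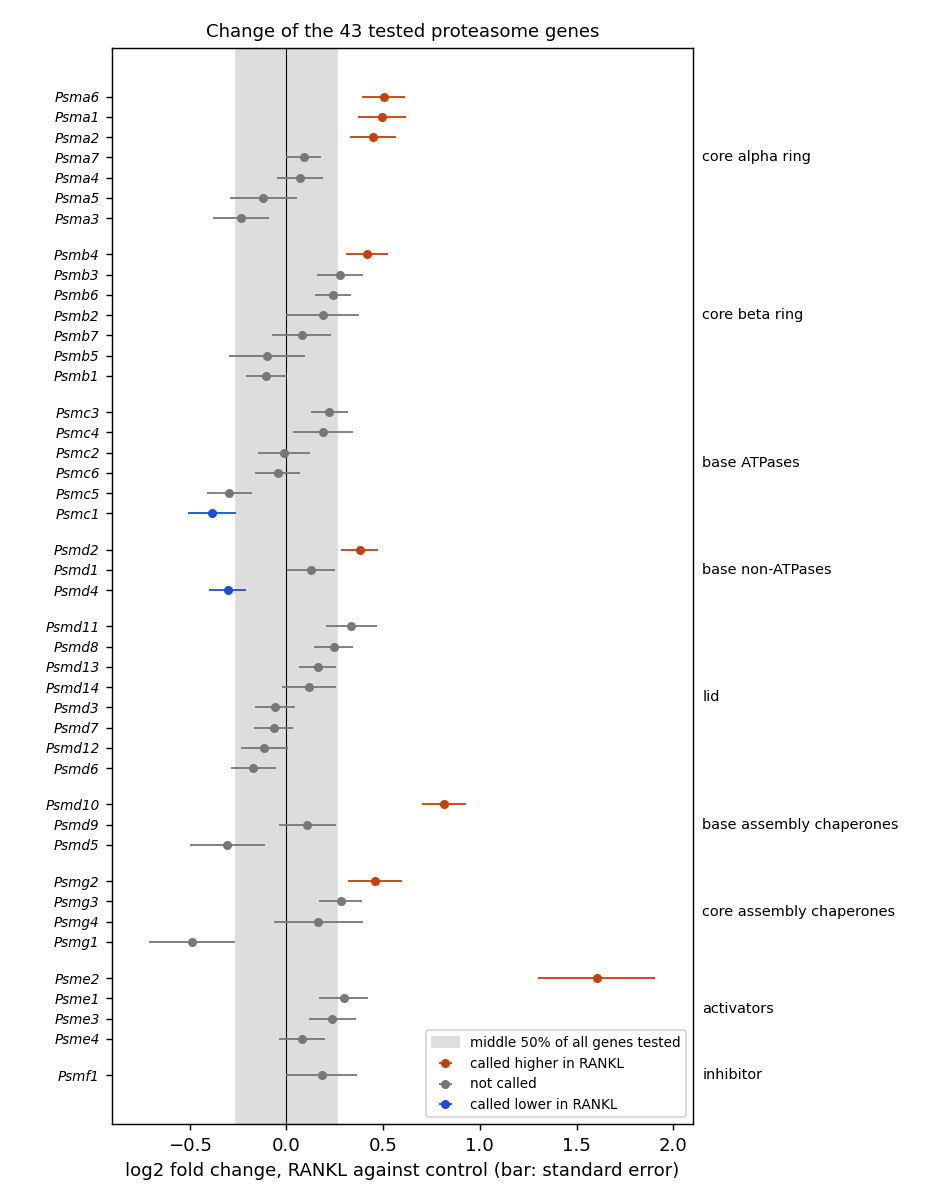
Log2 fold change of each tested member, RANKL against control, on the x axis, with members grouped by subcomplex on the y axis. Points are edgeR estimates from 4 libraries a group, bars are standard errors, and the grey band spans the middle 50% of all genes tested (-0.26 to 0.26). Most members lie inside or next to the band, and Psme2 (1.61) and Psmd10 (0.82) lie farthest to the right.

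Sequence upstream of 4 members and of Nfe2l1 is shown because these genes carry the contrasts described below. Psmd10 and Psme2 had the largest rises among the members, Psmb5 and Psmb6 encode catalytic sites that did not pass the test, and Nfe2l1 encodes the regulator of the family. Each stretch ends before both the RefSeq start and the first annotated base of the gene (RefSeq sequences, GRCm38.p6, written on the strand of the gene). Where RefSeq gives several starts, the farthest upstream was used. Capitals mark matches, on either strand, to 4 motifs: the CCAAT box (CCAAT), the core of the antioxidant response element bound by NRF1 and NRF2 (TGACNNNGC), the GC box (GGGCGG) and the NF-κB consensus, which had no match here.
Psmd10, chrX:140956729-140956961, minus strand: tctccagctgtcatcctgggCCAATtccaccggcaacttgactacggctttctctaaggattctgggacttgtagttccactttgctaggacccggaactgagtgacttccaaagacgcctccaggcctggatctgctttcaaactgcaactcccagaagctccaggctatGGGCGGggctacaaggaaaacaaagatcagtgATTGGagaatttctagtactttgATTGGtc
Psme2, chr14:55591114-55591351, minus strand: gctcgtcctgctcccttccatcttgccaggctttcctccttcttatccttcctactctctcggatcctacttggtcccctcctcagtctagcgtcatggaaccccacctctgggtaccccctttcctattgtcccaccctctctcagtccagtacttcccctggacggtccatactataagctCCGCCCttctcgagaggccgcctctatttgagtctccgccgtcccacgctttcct
Psmb5, chr14:54618023-54618245, minus strand: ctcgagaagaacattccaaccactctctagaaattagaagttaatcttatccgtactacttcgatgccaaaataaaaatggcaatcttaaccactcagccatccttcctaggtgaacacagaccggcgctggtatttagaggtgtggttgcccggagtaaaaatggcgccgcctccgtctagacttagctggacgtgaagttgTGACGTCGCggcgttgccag
Psmb6, chr11:70525107-70525356, plus strand: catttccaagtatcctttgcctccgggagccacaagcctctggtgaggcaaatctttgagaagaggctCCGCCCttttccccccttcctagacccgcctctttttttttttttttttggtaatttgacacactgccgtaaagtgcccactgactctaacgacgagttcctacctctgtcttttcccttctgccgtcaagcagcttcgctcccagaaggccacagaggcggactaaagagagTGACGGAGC
Nfe2l1, chr11:96829969-96830218, minus strand: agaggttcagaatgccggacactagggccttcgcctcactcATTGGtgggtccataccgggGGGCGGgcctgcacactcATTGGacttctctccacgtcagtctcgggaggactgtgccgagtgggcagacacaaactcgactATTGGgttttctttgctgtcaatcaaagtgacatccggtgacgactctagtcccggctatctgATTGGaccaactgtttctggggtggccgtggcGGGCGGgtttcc

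The stretch before Psmd10 held 3 CCAAT boxes and 1 GC box, and that before Nfe2l1 held 4 CCAAT boxes and 2 GC boxes. Psme2 had 1 GC box. Psmb5 and Psmb6 each had 1 antioxidant response element core, which starts 47 bases before the RefSeq start in Psmb5 and 9 bases before it in Psmb6. In windows from 250 bases before to 50 bases after the start, RefSeq sequence was at hand for 37 of the 45 members, in 40 windows. The antioxidant response element core was in 6 of the 40 windows (15.0%), against 12.4% of 32841 windows of all genes. All 6 were among the 28 windows of members that were tested and not called (Psmb5, Psmb6, Psmc6, Psmd12, Psmd9 and Psme4). None of the 11 windows of called members, from 9 genes, held it. The CCAAT box split the other way, in 6 of these 11 windows (54.55%) and 6 of the 28 (21.43%). Called members here pool both directions, and Psmc1 and Psmd4, which fell, are among those with the box. Psma6 and Psme2 each gave more than 1 window. The GC box was in 6 of the 11 and 17 of the 28. These contrasts were seen after the calls and were not tested. The CCAAT box was in 32.5% of member windows and 37.4% of all windows, and the GC box in 57.5% and 35.7%. The NF-κB consensus was in 1 member window, that of Psmd12 (4.51% of all windows held it). The median GC content was 58.2% for member windows and 52.7% for all. Overlapping matches were each counted, and a match describes letters only.

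In the alpha rings 3 of 7 tested subunits rose and the other 4 did not pass the test (42.9% called, beside 25.9% of all genes tested). Psma1, on chromosome 7, was at 92.1, 82.9, 72.7 and 89.4 CPM in control replicates 1 to 4 and at 100.1, 109.4, 113.2 and 142.2 CPM in RANKL replicates 1 to 4, the order used throughout. Every RANKL library was above every control library, and the log2 fold change was 0.49 (SE 0.12, adjusted p = 0.0029). Psma2 was at 243.6, 248.5, 164.2 and 187.4 CPM in the control and 300.3, 262.2, 281.1 and 322.4 CPM after RANKL. The groups did not overlap, although control replicates 3 and 4 lay well below the others, and the log2 fold change was 0.45 (SE 0.12, adjusted p = 0.0051). Psma6 was the tightest of these genes. It ran from 71.7 to 77.4 CPM in the control libraries (71.7, 72.5, 72.7 and 77.4) and from 97.7 to 110.0 CPM after RANKL (98.5, 97.7, 110.0 and 104.4), a log2 fold change of 0.50 (SE 0.11, adjusted p = 0.0011). The other 4 alpha subunits ran from -0.24 (Psma3) to 0.09 (Psma7). The summed CPM of the alpha rings was 1001–1067 for control and 1134–1277 after RANKL, with no overlap.

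In the beta rings 1 of 7 tested subunits rose (14.3% called, beside 25.9% of all genes tested). Psmb4, a non-catalytic subunit, was at 301.0, 308.9, 225.5 and 294.1 CPM in the control and 379.4, 362.7, 345.8 and 416.3 CPM after RANKL. All RANKL libraries were above the controls, with control replicate 3 lowest, and the log2 fold change was 0.42 (SE 0.11, adjusted p = 0.0037). None of the 3 subunits with an active site passed the test. Psmb6 was at 407.0, 391.5, 370.0 and 417.9 CPM in the control and 473.0, 426.7, 485.5 and 480.6 CPM after RANKL, again without overlap, with a log2 fold change of 0.24 (SE 0.09, adjusted p = 0.058, and under 0.05 in 4 of 17 alternative settings of scaling, test, filter or libraries). Psmb7 was at 126.2, 108.9, 70.7 and 104.9 CPM in the control and 69.4, 126.0, 108.0 and 118.1 CPM after RANKL. The 2 ranges were almost the same, and the log2 fold change was 0.08 (SE 0.15, adjusted p = 0.75). Psmb5 was the lowest of the 3 sites, with a level that is uncertain because transcripts of other genes match its last bases (described below). It was at 33.7, 25.0, 22.1 and 29.2 CPM in the control and 24.2, 21.3, 20.9 and 35.2 CPM after RANKL, with a log2 fold change of -0.10 (SE 0.20, adjusted p = 0.75), and the sign of this value turned without control replicate 1 (0.08) or RANKL replicate 3 (0.01). That of Psmb7 turned without control replicate 3 (-0.09) or RANKL replicate 2 (-0.004). The other beta subunits, Psmb1, Psmb2 and Psmb3, had log2 fold changes of -0.10, 0.19 and 0.28 and were not called.

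Of the inducible subunits that replace these sites, Psmb10 rose and Psmb8 was too low to test. Psmb9 was called higher, but it was tested because of its level after RANKL. Psmb10, which takes the place of Psmb7, was at 112.4, 104.1, 109.7 and 98.0 CPM in the control and 122.7, 151.4, 151.8 and 137.9 CPM after RANKL. It rose by 0.41 on the log2 scale (SE 0.11, adjusted p = 0.0053) with no overlap. Psmb9, the counterpart of Psmb6, was low. It was at 3.44, 1.88, 1.01 and 8.60 CPM in the control and 9.69, 5.51, 10.95 and 6.59 CPM after RANKL, a log2 fold change of 1.59 (SE 0.40, adjusted p = 0.0030), with control replicate 4 inside the RANKL range. It reached the filter on low counts in 4 RANKL libraries and 1 control library, and its adjusted p was 0.11 with library depth as a covariate. Psmb8, the counterpart of Psmb5, stayed under the filter, at 1.52–6.88 CPM in the control and 0.688–3.29 CPM after RANKL. Of the summed CPM of the 6 genes, the inducible subunits made up 17.8 ± 1.19% in the control and 20.2 ± 1.36% after RANKL (mean ± SD, n = 4). The difference of 2.43 percentage points had p = 0.0857 in an exact two-sided permutation test over libraries, in which 4 against 4 can give no p below 0.0286, and the ranges overlapped. Most of the inducible part was Psmb10.

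**Figure D2:**
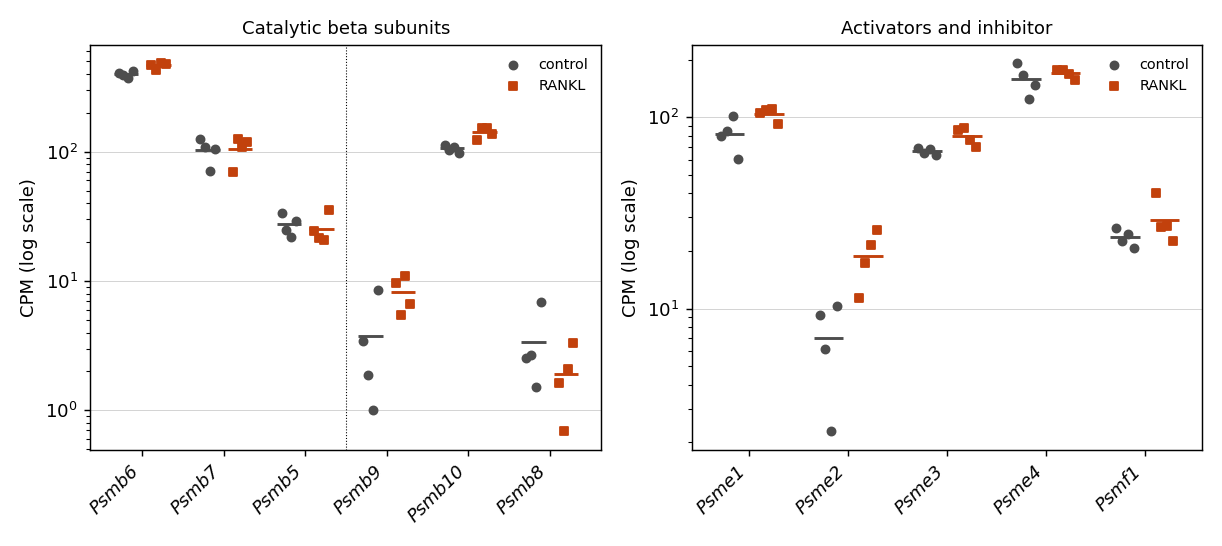
CPM (log axis) of the constitutive and inducible catalytic subunits, left and right of the dotted line in the left panel, and of the activators and the inhibitor in the right panel. Each point is a library, grey circles control and orange squares RANKL, and lines are means of 4 libraries. Psmb6, Psmb10, Psme2 and Psme3 show no overlap between the groups, whereas Psmb5 and Psmb7 overlap.

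The base of the regulatory particle changed in both directions. Of its 9 tested genes 1 rose and 2 fell (33.3% called, beside 25.9% of all genes tested). Psmc1, an ATPase and the most abundant member by tag count, was at 1006, 1032, 1666 and 1169 CPM in the control and 901, 953, 1089 and 792 CPM after RANKL. The groups overlapped and control replicate 3 stood apart. The log2 fold change was -0.38 (SE 0.13, adjusted p = 0.023), it was -0.19 without control replicate 3, and Psmc1 missed the threshold in 7 of 17 alternative settings. The other 5 ATPases were not called, from -0.29 for Psmc5 to 0.22 for Psmc3. Psmd4, the ubiquitin receptor of the base, was at 842.8, 840.2, 979.5 and 911.4 CPM in the control and 702.3, 786.0, 766.1 and 638.7 CPM after RANKL. All RANKL libraries were below all controls, with a log2 fold change of -0.30 (SE 0.10, adjusted p = 0.019), and the call was lost in 3 alternative settings (without RANKL replicate 1, without RANKL replicate 4, and without both libraries under 1000000 counts). Psmd2, a large scaffold of the same base, moved the other way. It was at 233.2, 280.4, 262.5 and 256.2 CPM in the control and 347.1, 337.9, 310.3 and 348.8 CPM after RANKL, a log2 fold change of 0.38 (SE 0.10, adjusted p = 0.0039) without overlap. Psmd1, its scaffold partner, was at 0.13 (SE 0.13, adjusted p = 0.50).

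Of the 8 lid subunits 0 passed the edgeR test (beside 25.9% of all genes tested), 0 passed DESeq2 and 1 passed limma-voom (Psmd11). At an unadjusted p under 0.05 edgeR gave 2, Psmd8 and Psmd11, both with positive values. Psmd11 was at 0.34 (SE 0.13, adjusted p = 0.059 by edgeR). The deubiquitinase Psmd14 was at 0.12 (SE 0.14), and the lid genes ran from -0.17 (Psmd6) to 0.34, with a median of 0.03. Summed over the lid, the control libraries held 2036–2198 CPM and the treated ones 2094–2331 CPM. For the whole core particle the sums were 2073–2444 and 2511–2764 CPM, without overlap, and for the whole regulatory particle 5661–6483 and 5342–5943 CPM, with overlap. No difference between subcomplexes was tested.

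**Figure D3:**
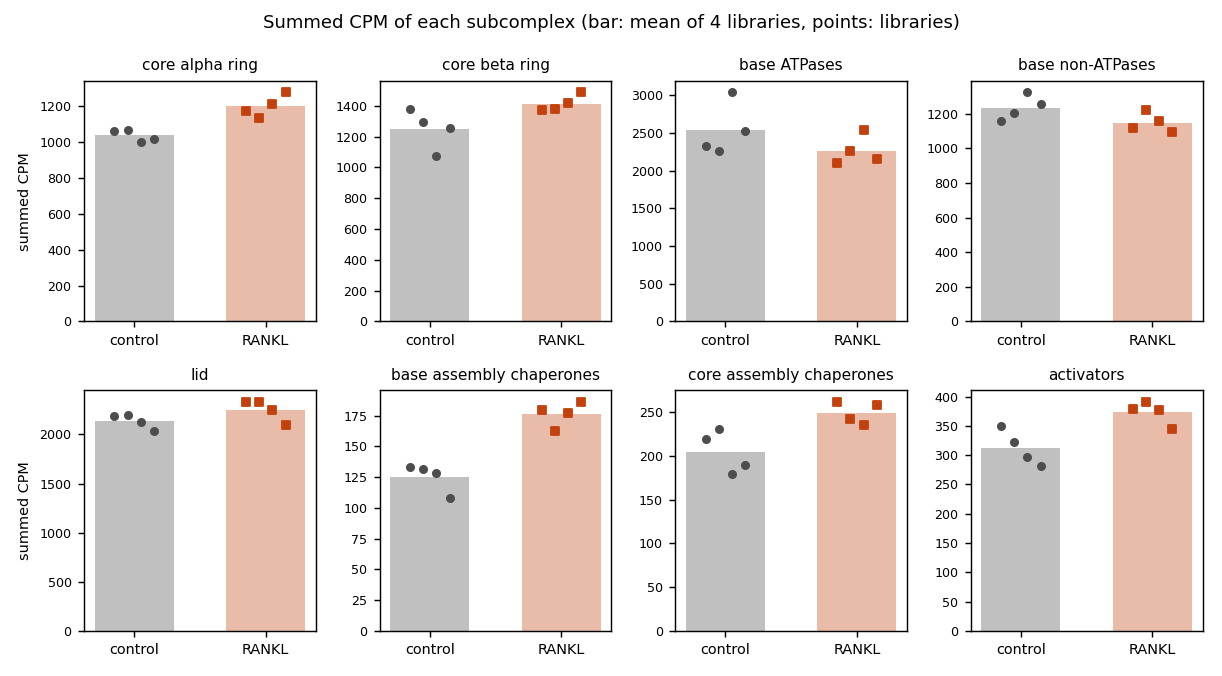
Summed CPM of the members of each subcomplex, with a panel per subcomplex and axes from 0. Bars are means of 4 libraries and points are libraries. The RANKL libraries lie above all control libraries for the alpha rings and for both groups of assembly chaperones, and the groups overlap for the beta rings, the base, the lid and the activators. For the base chaperones the summed mean went from 125.1 to 176.1 CPM, and the mean of Psmd10 alone went from 62.3 to 112.3 CPM.

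The assembly chaperones held the member with the smallest adjusted p. Psmd10 (gankyrin, chromosome X, 140948429 to 140956728, minus strand) binds the base ATPases during assembly and is also known as an oncoprotein. It was at 65.4, 66.8, 61.8 and 55.0 CPM in the control and 116.2, 106.0, 110.6 and 116.4 CPM after RANKL. The groups were far apart, and the log2 fold change was 0.82 (SE 0.11, adjusted p = 1.8e-06), a 1.76-fold rise that held in all 17 alternative settings of scaling, test, filter and libraries. The other base chaperones were not called, Psmd9 at 0.11 and Psmd5 at -0.31. Psmg2, which pairs with Psmg1 to assemble the alpha ring, was at 54.6, 53.1, 41.1 and 51.6 CPM in the control and 69.4, 70.2, 57.4 and 78.5 CPM after RANKL. It rose by 0.46 on the log2 scale (SE 0.14, adjusted p = 0.014) without overlap, and the call was lost without RANKL replicate 4 (adjusted p = 0.095) and with library depth as a covariate (adjusted p = 0.069). Its partner Psmg1 was at -0.49 (SE 0.22, adjusted p = 0.11), so the 2 genes of this pair had values of opposite sign, and the difference between them was not tested. Psmg3 and Psmg4 were at 0.28 and 0.17. The 7 chaperones summed to 297.5–361.5 CPM in the control and 404.7–443.7 CPM after RANKL.

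Among the activators, 1 of 4 rose (25.0% called, beside 25.9% of all genes tested). Psme2 encodes PA28 beta, which forms the interferon-inducible PA28 cap with PA28 alpha (Psme1). It lies on chromosome 14 (55587441 to 55591113, minus strand) and was the lowest of the tested members, at 9.29, 6.17, 2.28 and 10.3 CPM in the control and 11.3, 17.2, 21.4 and 25.8 CPM after RANKL. All RANKL libraries were above the controls, RANKL replicate 1 only narrowly, and the log2 fold change was 1.61 (SE 0.30, adjusted p = 0.00014). These values rest on 111 control counts and 120 RANKL counts. The last 500 bases of Psme2 transcripts were also matched over their full length at 99.4% identity by Psme2b, which held 13 counts over all libraries, so the level of Psme2 is uncertain. Psme1 (chromosome 14, 55578123 to 55581529, plus strand), the neighbour of Psme2, was at 79.8, 84.8, 101.4 and 60.2 CPM in the control and 104.9, 109.4, 111.1 and 91.7 CPM after RANKL. Only RANKL replicate 4 fell inside the control range, and the log2 fold change was 0.30 (SE 0.13, adjusted p = 0.086). Without control replicate 3, Psme1 passed the threshold, at 0.40.

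The nuclear activator PA28 gamma (Psme3) was at 68.9, 64.7, 68.4 and 63.6 CPM in the control and 85.6, 88.1, 76.1 and 69.8 CPM after RANKL. The groups did not overlap, but the log2 fold change of 0.24 (SE 0.12) had an adjusted p of 0.16. PA200 (Psme4), an activator linked to histone turnover, was at 192.1, 166.4, 124.7 and 147.9 CPM in the control and 177.6, 176.2, 167.9 and 157.1 CPM after RANKL. Its RANKL libraries lay within the control range, and the log2 fold change of 0.08 (SE 0.12) turned to -0.04 without control replicate 3. Psmf1, the inhibitor PI31, was at 26.4, 22.5, 24.6 and 20.6 CPM in the control and 40.4, 26.8, 27.1 and 22.5 CPM after RANKL. RANKL replicate 1 was the highest by far, and the log2 fold change was 0.18 (SE 0.18, adjusted p = 0.51).

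**Figure D4:**
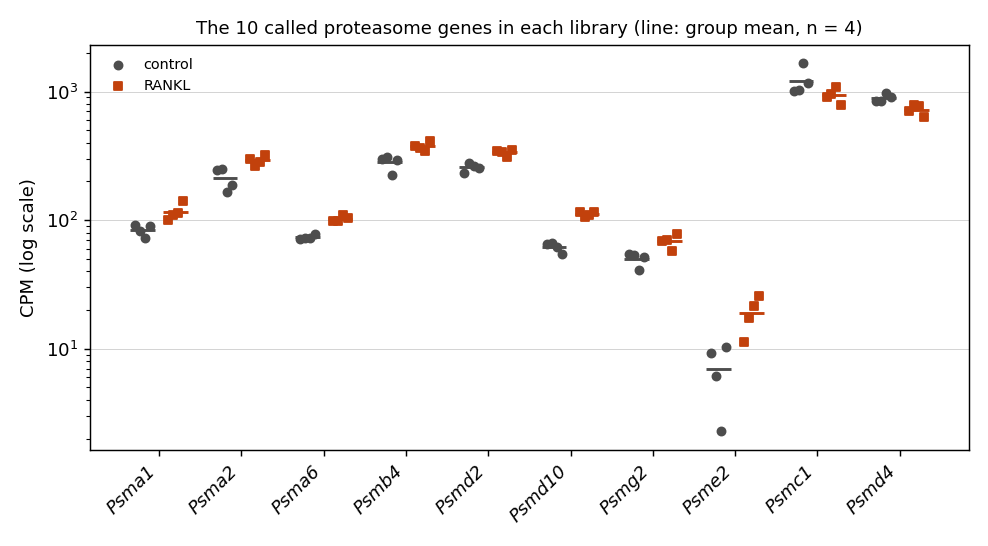
CPM (log axis) of the 10 members past the threshold, 8 higher genes first and then the 2 lower genes. Grey circles are control libraries, orange squares RANKL libraries and lines means of 4. The 8 higher genes and Psmd4 show no overlap between the groups, and Psmc1 overlaps, with control replicate 3 at 1666 CPM.

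Levels differed more between members than between conditions, where the largest fold was 3.04 (Psme2). In 3′ tag sequencing a transcript gives about the same number of tags whatever its length, so CPM of different genes can be set side by side. Priming differs between transcripts, however, and reads from ends that match another gene could be split between genes or left uncounted. Psme2, Psma5 and Psmc1, at limits of the ranges given here, have such matches (described below), so these spans are uncertain. The mean over all libraries spanned 83.0-fold, from 13.0 CPM for Psme2 to 1076 CPM for Psmc1. After Psmc1 came Psmd4 (808 CPM), Psmd13 (731 CPM), Psmc3 (650 CPM) and Psmd3 (486 CPM), all of the regulatory particle. Subunits that are built into a ring in equal numbers were unequal as tag counts. Within the alpha rings the means ran from 39.9 CPM (Psma5) to 463 CPM (Psma7), within the beta rings from 25.0 CPM (Psmb2) to 431.5 CPM (Psmb6), and within the ATPase ring from 44.0 CPM (Psmc4) to 1076 CPM (Psmc1).

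Outside the family, Nfe2l1 had a larger log2 fold change than every member except Psme2. Of 7 tested regulators of proteasome gene transcription, 2 rose and 1 fell (42.9% called, beside 25.9% of all genes tested). Nfe2l1, which encodes NRF1, a membrane-anchored factor that is itself a substrate of the proteasome, was at 74.7, 91.2, 120.1 and 98.0 CPM in the control and 277.7, 249.2, 266.5 and 270.2 CPM after RANKL. The groups were far apart, and the log2 fold change was 1.48 (SE 0.12, adjusted p = 4.8e-11), a 2.79-fold rise. Mafg, a small MAF protein that pairs with NRF1 and NRF2 on DNA, was at 151.3, 165.6, 118.9 and 125.5 CPM in the control and 208.3, 202.4, 190.9 and 234.5 CPM after RANKL. It rose by 0.55 on the log2 scale (SE 0.11, adjusted p = 0.00042) without overlap. Ddi2, the protease that cleaves NRF1 into its active form, was at 273.2, 287.9, 326.4 and 283.8 CPM in the control and 234.1, 228.5, 199.7 and 210.4 CPM after RANKL. It fell by 0.44 on the log2 scale (SE 0.10, adjusted p = 0.0014) without overlap. Nfe2l2, Ngly1, Mafk and Maff did not pass the test, with log2 fold changes of -0.24, -0.30, -0.38 and 0.69, and Nfe2l3 had 3 counts in all. Whether NRF1 protein or its cleavage changed cannot be read from transcript counts.

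**Figure D5:**
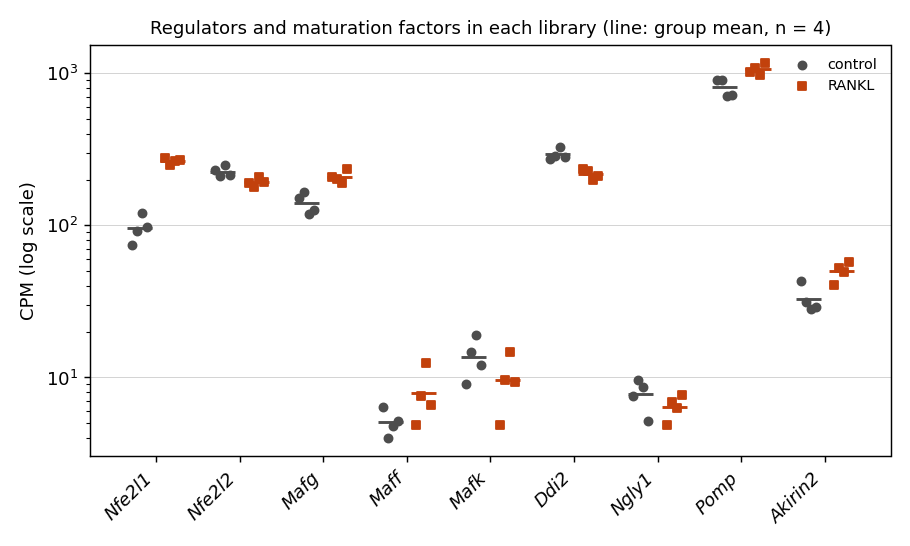
CPM (log axis) of regulators of proteasome gene transcription and of the maturation factors Pomp and Akirin2. Grey circles are control libraries, orange squares RANKL libraries and lines means of 4. Nfe2l1 goes from 74.7–120.1 CPM to 249–278 CPM, Mafg and Pomp are higher and Ddi2 is lower without overlap, and Akirin2 is higher with 1 library overlapping.

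Of 9 tested factors that are bound to the proteasome or help to make it, 2 rose and 7 did not pass the test. The share called was 22.2%, beside 25.9% of all genes tested. Pomp, the maturation factor that guides beta subunits into the growing barrel, was at 902.9, 907.5, 706.8 and 718.8 CPM in the control and 1019, 1089, 979.9 and 1164 CPM after RANKL. It rose by 0.39 on the log2 scale (SE 0.10, adjusted p = 0.0044), with all RANKL libraries above the controls. Akirin2, which brings proteasomes into the nucleus, had a log2 fold change of 0.58 (SE 0.16, adjusted p = 0.0073), from 28.1–43.0 CPM to 40.4–57.7 CPM. The lid subunit Sem1, the ubiquitin receptor Adrm1 and the deubiquitinases Uchl5 and Usp14 were not called. Among 5 tested genes for ubiquitin, its relatives and E1 enzymes, 1 rose and 1 fell (40.0% called, beside the same 25.9%). Ubd (FAT10), a ubiquitin-like tag for proteasomal degradation that is induced by NF-κB, had 0 counts in all control libraries and 12.9, 17.2, 12.5 and 10.4 CPM after RANKL. Pooled over libraries this was at least 70.2-fold higher, against the level of 3 counts over the control group. Ubd reached the filter on low counts in the 4 RANKL libraries and in 0 control libraries. Ubb had a log2 fold change of -0.44 (adjusted p = 0.037) and missed the threshold in 9 of 17 alternative settings.

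Of 8 tested genes for antigen processing, the step that uses peptides made by the proteasome, 5 rose, beside 13.6% of all genes called higher. All 8 had positive values, beside 50.0% of all genes, and the median log2 fold change was 0.63, beside 0.0002. This list was chosen with earlier results of these data known, so its share, signs and median are a description only. It shares Psmb9 and Psmb10 with the inducible subunits described above, and Psmb9 was tested because of its level after RANKL. Irf1, a transcription factor of the interferon response, was at 46.6, 44.8, 45.1 and 43.0 CPM in the control and 148.5, 136.3, 130.4 and 136.8 CPM after RANKL, a log2 fold change of 1.59 (SE 0.11, adjusted p = 2.2e-12). Tapbp (tapasin), which loads peptides onto MHC class I, rose by 0.90 (SE 0.13, adjusted p = 2.4e-06), and B2m, the MHC class I light chain, rose by 0.49 (SE 0.11, adjusted p = 0.0010) on the same scale. The peptide transporter genes Tap1 and Tap2 and the trimming peptidase Erap1 were at 0.52, 0.74 and 0.30 and were not called. Nlrc5 had 2 counts in all libraries and was not tested.

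For 14 members the last 500 bases of a transcript matched a transcript of another gene at 95% identity or more over at least 50 bases. Reads from these members could be split between genes or left uncounted. Among called members these were Psmc1, Psmd2 and Psme2. The others were Psma3, Psma4, Psma5, Psmb3, Psmb5, Psmb11, Psmd1, Psmd9, Psmd11, Psmd13 and Psme1. Psma4 had the copy with the most counts that matched it over the full length, Gm6542, with 180 counts against 2392 on Psma4. Counts of these members are therefore uncertain. How reads that match several genes were counted was not described, so the counts on a copy do not limit this uncertainty.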

How the data were processed

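The authors sequenced 8 libraries by QuantSeq 3′ mRNA sequencing, trimmed reads with BBDuk, removed abundant sequences with bowtie2, aligned to GRCm38 with STAR and counted reads on Ensembl 94 genes with strand-specific featureCounts. The deposited values are raw counts without normalization. Tags come from transcript ends, so they report total transcript ends per gene and not isoforms. No molecular identifiers are described, so counts include PCR copies and floors cover counting error only.

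Symbols, coordinates and biotypes came from GENCODE M21 (GRCm38), which matched 54495 of 54532 genes. The members and lists were chosen with earlier results of these data known. Libraries took their group from the titles. edgeR 4.0.16 in R 4.3.3 used TMM factors, its filter on low counts (here 5.39 CPM in at least 4 libraries), a quasi-likelihood test between the 2 groups and Benjamini-Hochberg adjustment over 9971 genes, with a threshold of 0.05. SE is the log2 fold change divided by the square root of F. CPM used TMM-scaled totals. Single values were compared by exact permutation over 70 assignments. Named genes were all called members, the active sites, the activators and inhibitor, the inducible subunits, and up to 5 called genes of each pathway list. Alternatives were DESeq2 1.42.0, limma-voom (limma 3.58.1), other scalings, filters and thresholds, a depth covariate, a replicate block and left-out libraries. Transcript copies were searched with BLAST. Replicates of a group differed by more than counting noise (chi-square per degree of freedom 1.29 to 13.1), and each counted as 1 sample. This spread does not show that they came from separate mice or cultures. Paaf1 and the older symbol of Ecpas were not analysed here.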

Additional observations from a re-analysis of the deposited data

Results flagged for a closer look

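In 2 of 115 groups of 4 libraries, 1 library of a member stood apart from the rest of its group by Dixon's criterion, where chance alone gives about 5.8. Psmb3 in control replicate 3 was at 68.4 CPM, with the next library at 84.2 CPM. Psmd6 in RANKL replicate 1, a library under 1000000 counts, was at 67.8 CPM, with the next at 88.7 CPM. Neither member was called.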

How the results depend on the processing

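The 10 calls stayed within 1.5 times under each alternative except a fold of at least 1.5, which left 2 members, both higher (Psme2 and Psmd10), 0 lower and 1444 of all genes. An adjusted p under 0.01 left 1636 of all genes and 0 lower members. Members called lower numbered 1 with DESeq2, 1 with the depth covariate, 0 without both libraries under 1000000 counts, and 0 to 3 when each library was left out in turn. The members' median ran from 0.10 to 0.21 over the left-out libraries, highest without control replicate 1. Without a filter on low counts the median of all genes moved to -0.11, and that of the members was 0.09. The log2 fold change of Psmb5 turned to 0.0373 with the depth covariate and ran from -0.345 to 0.0832 over the left-out libraries, that of Psmb7 from -0.0859 to 0.234 and that of Psme4 from -0.0449 to 0.209. Taken by pair, the share of Psmb8 against Psmb5 was lower by 3.80 points after RANKL (-3.80, exact permutation p = 0.31), opposite to the summed share. The causes were not tested. Of 585 values of single genes under alternatives, 522 kept direction and side of the threshold, 51 lost the threshold, 6 gained it and 6 changed sign.

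Libraries with the same replicate number showed little shared deviation (r -0.03 to 0.10, over 0.1 in 1 of 4). Whether they shared a culture or batch cannot be told from these values. With the replicate block 14 members were called, 11 higher and 3 lower, Psme1 passed the threshold and Ubb did not. Depth limits the low members most: a count of 0 allows up to 5.14 CPM in the shallowest library.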

Other observations

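The p97 segregase, which pulls ubiquitin-tagged proteins out of membranes and complexes before they reach the proteasome, and the shuttle factors that carry them were described by their lists. Of 7 tested p97 genes 2 rose and 5 did not pass the test (28.6% called, beside 25.9% of all genes tested). Nsfl1c (p47), an adaptor of p97 in membrane fusion, was at 10.6, 13.7, 12.2 and 6.88 CPM in the control and 19.4, 26.2, 25.0 and 23.6 CPM in the RANKL libraries, a log2 fold change of 1.05 (SE 0.21, adjusted p = 0.00025). The groups did not overlap. Nploc4, an adaptor for ubiquitinated substrates, was at 0.38 (adjusted p = 0.033) and missed the threshold in 8 of 17 alternative settings. Its partner Ufd1 was at -0.001, and Vcp, the ATPase itself, at 0.05. Of 6 tested shuttle factors, 1 fell in the edgeR test (Ddi2, described above) and 5 did not pass it (16.7% called). Rad23b, the most abundant of them, was at 0.03 (SE 0.10).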
